A study of Mus musculus with 4 samples.

Results

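A set of 10 immediate-early genes was followed across the immune cells of the mouse peritoneal cavity. They were the nuclear receptor genes Nr4a1, Nr4a2 and Nr4a3, the Jun family genes Jun, Junb and Jund, the Fos family genes Fos and Fosb, the zinc-finger transcription factor gene Egr1 and the phosphatase gene Dusp1. All 10 symbols were found once among the 32285 genes of both expression libraries. The study set wild-type (WT) mice beside knockout (KO) mice, and the identity of the deleted gene is left out here. Both genotypes received a high-fat diet that lasted 3 months and began at 4 weeks of age, and leukocytes carrying CD45 were sorted from peritoneal lavage. Each genotype had 1 expression library and 1 B-cell receptor (BCR) library. The sources used here do not give the number of mice behind a library, and no label names a tissue restriction of the knockout.

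Immediate-early genes are switched on within minutes of a stimulus, without new protein synthesis, by transcription factors that are already present and become phosphorylated. Calcium and cAMP signals reach Nr4a promoters through CREB and MEF2 proteins, and the ERK, JNK and p38 kinases act on Fos, Jun and Egr1 through ternary complex factors and other activators. Fos and Jun proteins pair to form AP-1, Nr4a proteins are orphan nuclear receptors that restrain lymphocyte activation, and Dusp1 dephosphorylates p38 and JNK. In lymphocytes, Nr4a1 and Egr1 are widely used as reporters of recent antigen-receptor signalling.

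RefSeq promoter windows (build GRCm38.p6) were used for 9 of the 10 members. No window was used for Egr1, and whether the reference holds one is not reported here. The 250 bases before the annotated start are shown for the 4 members with the lowest KO to WT ratios in T cells and for Fos, whose ratio in T cells was near 1. Capitals mark TGACG, the core of the cAMP response element that CREB binds, on either strand (CGTCA where it lies on the other). These sequences are the reference and were not read from the libraries. The windows lie at chr15:101266596-101266845, plus strand, for Nr4a1, at chr2:57124004-57124253, minus strand, for Nr4a2, at chr4:48045055-48045304, plus strand, for Nr4a3, at chr4:95052223-95052472, minus strand, for Jun, and at chr12:85473640-85473889, plus strand, for Fos.
Nr4a1: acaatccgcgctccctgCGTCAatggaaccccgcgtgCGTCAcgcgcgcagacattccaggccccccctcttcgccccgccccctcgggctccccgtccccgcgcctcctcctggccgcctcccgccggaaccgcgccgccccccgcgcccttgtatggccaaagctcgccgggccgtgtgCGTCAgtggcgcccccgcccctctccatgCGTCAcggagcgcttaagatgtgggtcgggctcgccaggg
Nr4a2: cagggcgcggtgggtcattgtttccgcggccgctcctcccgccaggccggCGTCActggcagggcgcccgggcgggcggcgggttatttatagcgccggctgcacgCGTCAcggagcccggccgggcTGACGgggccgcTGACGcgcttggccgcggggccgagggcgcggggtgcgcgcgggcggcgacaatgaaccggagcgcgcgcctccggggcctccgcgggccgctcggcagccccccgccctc
Nr4a3: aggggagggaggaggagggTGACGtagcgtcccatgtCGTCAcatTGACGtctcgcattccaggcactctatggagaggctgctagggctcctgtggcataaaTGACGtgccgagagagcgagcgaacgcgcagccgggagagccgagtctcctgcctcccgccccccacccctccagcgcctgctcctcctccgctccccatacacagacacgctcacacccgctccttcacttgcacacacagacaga
Jun: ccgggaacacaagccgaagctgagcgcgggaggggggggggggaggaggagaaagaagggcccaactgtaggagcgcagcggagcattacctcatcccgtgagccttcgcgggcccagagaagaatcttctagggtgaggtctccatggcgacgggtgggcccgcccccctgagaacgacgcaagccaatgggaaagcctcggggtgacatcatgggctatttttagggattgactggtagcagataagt
Fos: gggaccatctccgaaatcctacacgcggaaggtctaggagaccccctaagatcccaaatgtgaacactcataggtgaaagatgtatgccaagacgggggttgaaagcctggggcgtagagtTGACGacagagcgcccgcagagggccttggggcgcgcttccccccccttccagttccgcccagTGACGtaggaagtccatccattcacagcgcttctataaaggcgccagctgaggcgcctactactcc
Each of the 3 Nr4a windows held TGACG at 4 places, and the Fos window held it at 2. The Jun and Jund windows held none, Junb and Fosb held 1 each, and Dusp1 held 3. A window of 300 bases (250 before and 50 after the start) with at least 1 such match was found for 21.0% of 27025 genes. At least 4 matches were found for 0.252%. These shares cover windows of any GC content, and TGACG itself contains CG. GC content was 72.3%, 81.7% and 64.7% in the Nr4a1, Nr4a2 and Nr4a3 windows, and from 46.7% (Jund) to 68.3% (Fosb) in the others. Windows of like GC content were not compared, and a relation of these matches to the ratios was not tested. The full palindrome TGACGTCA, which contains the shorter word on both strands, was present for 1.88% of genes and, among members, in the Dusp1 window. The AP-1 site TGACTCA (5.17% of genes), the Egr site GCGTGGGCG (0.625%) and the serum response CArG box (1.57%), searched on both strands, had no match in the 9 windows.

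The expression libraries differed in depth. WT held 10087 barcodes with a median of 6362 unique molecular identifiers (UMIs), and KO held 22516 with a median of 3298. Each barcode was therefore thinned at random to 2000 UMIs, a depth reached by 9404 WT and 16560 KO barcodes. Barcodes were then gated by markers of B, T, NK and myeloid cells, and B cells by B-1 and B-2 markers. This gave 2049 and 3504 B-1 barcodes, 954 and 1525 B-2, 1565 and 1740 T, 266 and 189 NK, and 147 and 547 myeloid barcodes in WT and KO. The classes are named for the markers that gated them, and 3882 and 7375 further B barcodes met neither B-1 nor B-2 criteria. The BCR libraries, which the gate did not use, gave a heavy chain for 75.1% and 69.0% of B-1 barcodes, 91.2% and 81.6% of B-2 barcodes and 1.02% and 0.977% of T barcodes. UMIs of a B-cell gene in other barcodes differed between the libraries. Cd79a, a B-cell gene, had a UMI in 3.83% of WT and 13.6% of KO T barcodes and in 4.14% and 16.4% of NK barcodes, against 99.8% and 99.7% of B-1 barcodes. Empty droplets were not analysed here, and whether these UMIs came from free RNA or from doublets was not tested. The part of both, and of depth, in the results below was not tested beyond the thinned and depth-matched values given. The libraries shared 293 barcode sequences.

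Levels are UMIs for every 1000000 UMIs of the class (CPM) after thinning, with exact Poisson 95% intervals in brackets. Ratios of KO to WT levels have exact binomial 95% intervals, conditional on the summed UMIs. With 1 library per genotype both kinds of interval cover counting error only, the spread between mice is unknown, and no test between genotypes was made. Lower and higher below describe the KO library beside the WT library.

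In T cells, at the depth used here, every one of the 10 members had a KO to WT ratio below 1, although Fosb was at 0.995. Nr4a1 was lowest at about 0.49, followed by Nr4a2, Jun and Nr4a3, and these 4 were past the 1.5-fold mark used here (below 0.667). Of all 5719 genes with a mean of at least 20 CPM in T cells, 1.35% were lower past 1.5-fold and 1.85% were higher, a direction in which no member was found. The median log2 ratio of the 10 members was -0.31, against 0.0013 over all genes. With all UMIs of the same barcodes, Fosb in T cells was above 1, at 1.06. Over 11 alternative settings, Fosb was below 1 in 7 and Egr1 in 10, and the other members were below 1 in all. B cells showed a narrower pattern. Nr4a1 alone of the 8 members at 20 CPM was past 1.5-fold in B-2 cells (background 2.1% lower and 1.39% higher), and none of 8 was in B-1 cells (0.718% lower and 1.19% higher). Median log2 ratios of members were 0.058 in B-1 and 0.034 in B-2 cells.

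NK and myeloid classes held fewer barcodes, and many genes were past 1.5-fold there. In NK cells 3 of 10 members were lower past 1.5-fold (Nr4a1, Nr4a3 and Egr1) and none higher, where 9.98% of 5932 genes were lower and 10.7% higher. At the depth used here all 10 NK ratios were below 1, with Dusp1 at 0.999, and their median log2 was -0.37. With all UMIs of the same barcodes, the NK ratios of Dusp1 and Jund were above 1, at 1.03 and 1.01. Over 10 alternative settings, the NK ratio was below 1 in 4 for Dusp1, 8 for Jund and 9 for Fosb. The other members were below 1 in all of them. In myeloid cells Nr4a2 and Nr4a3 were lower and no member higher, where 10.4% of 5272 genes were lower and 10.7% higher. The myeloid median was -0.047.

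**Figure D1:**
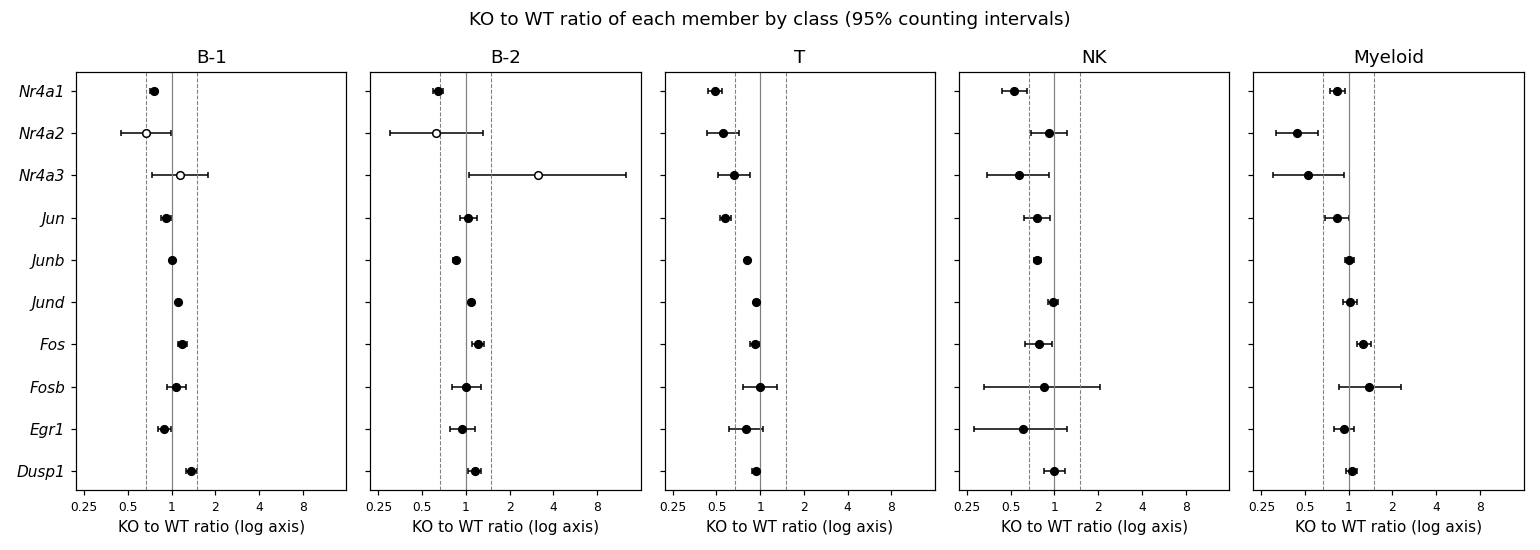
KO to WT ratio (log axis) of each of the 10 members in 5 classes, with 95% counting intervals. Filled points had a mean of at least 20 CPM and open points less, the solid line is 1 and the dashed lines are 1.5-fold in either direction. Nr4a1 lies left of 1 in all 5 classes, and Fos lies right of 1 in B-1, B-2 and myeloid cells.

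Nr4a1, which encodes the orphan receptor Nur77, had an interval wholly below 1 in all 5 classes. In T cells it was at 319 CPM (299 to 339) for WT and 156 CPM (143 to 169) for KO, which gave a ratio of 0.489 (0.44 to 0.543). In NK cells, it was at 709 CPM (639 to 784) for WT and 376 CPM (316 to 443) for KO, which gave a ratio of 0.53 (0.434 to 0.645). These intervals do not overlap in either class. In B-2 cells Nr4a1 was at 647 CPM (611 to 684) for WT and 414 CPM (392 to 438) for KO, which gave a ratio of 0.64 (0.591 to 0.693). In B-1 cells, levels of 539 CPM (516 to 562) for WT and 406 CPM (391 to 421) for KO gave a ratio of 0.754 (0.713 to 0.797). Both B classes stood lower in KO. Differences between classes were not tested here or below, so their ratios stand side by side. The myeloid class had the highest Nr4a1 level in both libraries, at 1177 CPM (1056 to 1308) for WT and 984 CPM (927 to 1045) for KO, and the ratio nearest to 1, 0.837 (0.74 to 0.947). B barcodes that met neither subset criterion had a ratio of 0.76. The B-2 call past 1.5-fold was lost with 1000 UMIs, at 0.674, with 4000 UMIs, at 0.752, with all UMIs of the same barcodes, at 0.693, and with another random draw, at 0.671. Here and below, barcodes with 1000 or 4000 UMIs were gated anew with the same marker cuts, so each class held other barcodes. The B-2 class then held 459 WT and 1162 KO barcodes with 1000 UMIs, and 696 and 752 with 4000.

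The order of Nr4a1 levels across classes differed between the libraries. In WT it ran from myeloid through NK, B-2 and B-1 to T, with NK and B-2 not separable by their counting intervals. In KO it ran from myeloid through B-2, B-1 and NK to T, with B-2 and B-1 not separable, and B-1 and NK not separable. The share of barcodes with at least 1 Nr4a1 UMI at 2000 UMIs moved with the level. It was 36.7% in WT and 20.9% in KO T cells, and 63.5% and 38.1% in NK cells. No single barcode carried the signal, since the T barcode with most Nr4a1 UMIs held 1.003% of them in WT and 2.03% in KO. For comparison, Cd79a, which T and NK cells should lack, went the other way, from 20.1 to 72.4 CPM in T and from 20.7 to 84.7 CPM in NK cells. Of 5 mast-cell markers in NK barcodes, Cma1 was also lower in KO, 82.0 against 195 CPM, Kit was at 42.3 against 33.8 CPM, and Cpa3, Tpsb2 and Mcpt4 had at most 5 UMIs in WT and 0 in KO. Their part in the NK ratios was not tested.

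**Figure D2:**
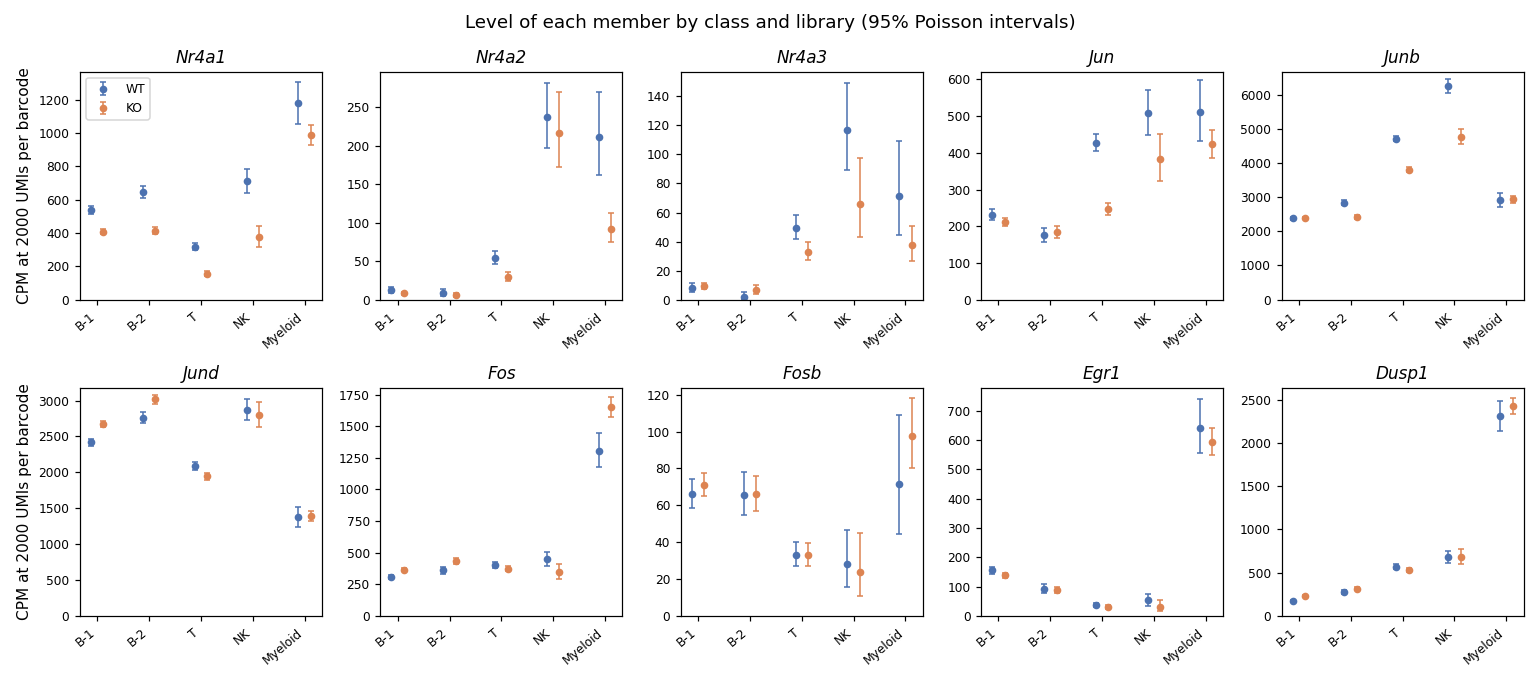
CPM of each member at 2000 UMIs per barcode in 5 classes, for the WT library (blue) and the KO library (orange), with exact Poisson 95% intervals. Each axis starts at 0 and has its own scale, and the myeloid points are highest for Nr4a1, Fos, Egr1 and Dusp1 in both libraries.

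Nr4a2 (Nurr1) and Nr4a3 (NOR-1), the close relatives of Nr4a1, were mostly genes of NK, myeloid and T cells. Nr4a2 was at 54.0 CPM (46.2 to 62.8) for WT and 29.9 CPM (24.4 to 36.2) for KO in T cells, which gave a ratio of 0.553 (0.429 to 0.711). The call past 1.5-fold was lost with another random draw, at 0.757, with 1000 UMIs, at 0.989, and with 4000 UMIs or all UMIs, both at 0.676, while a stricter gate gave 0.347. Myeloid Nr4a2 was at 211 CPM (162 to 270.3) for WT and 92.3 CPM (75.2 to 112) for KO, which gave a ratio of 0.438 (0.316 to 0.611). It was 0.691 with all UMIs of the same barcodes and 0.668 with 4000 UMIs, both short of the mark. In WT, 1 myeloid barcode held 9 of 62 Nr4a2 UMIs. NK cells had the highest Nr4a2 level, 237 CPM (197 to 282) for WT and 217 CPM (173 to 269) for KO, with a ratio interval that holds 1, 0.916 (0.685 to 1.22). That ratio was 0.599 with 1000 UMIs and 0.576 under the stricter gate. Nr4a3 was lower in KO in each of these 3 classes. Its ratios were 0.662 (0.515 to 0.848) in T, 0.568 (0.342 to 0.916) in NK and 0.525 (0.303 to 0.935) in myeloid cells, from 49.5, 117 and 71.4 CPM in WT. The T value was 0.704 with another random draw and 0.696 with subsets weighted alike, both short of the mark, and 0.405 with 4000 UMIs. With barcodes thinned to 4000 UMIs, 80 WT and 17 KO NK barcodes were left, and the KO barcodes held no Nr4a3 UMI, a count of 0 that allows up to 44.1 CPM (3 UMIs). Both genes were under 20 CPM in B cells, where B-1 levels were 12.2 and 8.13 CPM for Nr4a2 and 8.05 and 9.13 CPM for Nr4a3. The B-1 Nr4a3 ratio of 1.13 (0.734 to 1.78) turned to 0.732 (0.598 to 0.894) with all UMIs and 0.537 with 1000 UMIs. In B-2 cells Nr4a3 rested on 4 UMIs in WT and 20 in KO, and its ratio of 3.13 (1.05 to 12.6) turned to 0.859 with 4000 UMIs.

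The Jun family members did not move together. Jun, the AP-1 subunit activated by JNK, was at 427 CPM (404 to 450.4) for WT and 246 CPM (230.1 to 263) for KO in T cells, which gave a ratio of 0.577 (0.529 to 0.629). Its ratio in T cells stayed between 0.505 and 0.594 over the 11 alternative settings. In NK cells Jun was at 508 CPM (449 to 572) for WT and 384 CPM (324 to 451) for KO, which gave a ratio of 0.756 (0.613 to 0.928), and in myeloid cells at 510.2 CPM (432 to 599) for WT and 423 CPM (386 to 464) for KO, which gave a ratio of 0.83 (0.689 to 1.004). With 4000 UMIs the NK ratio was 0.300, on the few barcodes left there, and the myeloid ratio turned to 1.01. B cells differed little, with ratios of 0.911 (0.839 to 0.99) in B-1 and 1.04 (0.908 to 1.2) in B-2 cells. The order of Jun levels was the same in both libraries, from myeloid and NK, which were not separable, through T and B-1 to B-2.

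Junb, an AP-1 subunit that opposes Jun at some targets and has roles in T helper differentiation, was also lower in T and NK cells. In NK cells, its highest class, it was at 6241 CPM (6030.1 to 6457) for WT and 4762 CPM (4544 to 4987) for KO, which gave a ratio of 0.763 (0.72 to 0.808). T cells had Junb at 4708 CPM (4633 to 4785) for WT and 3807 CPM (3742 to 3872) for KO, which gave a ratio of 0.808 (0.79 to 0.828). In B-2 cells Junb had a ratio of 0.851 (0.821 to 0.882), and in B-1 and myeloid cells the intervals held 1, at 1.004 (0.979 to 1.03) and 1.01 (0.938 to 1.09). No Junb difference reached 1.5-fold at this depth, but the NK ratio was 0.505 with 4000 UMIs and 0.653 under the stricter gate. Among B-2 barcodes of 2000 to 4000 UMIs the Junb ratio was 0.764 (0.731 to 0.798). Its interval held 1 from 4000 to 8000 UMIs, at 0.937 (0.876 to 1.003), and above 8000, at 1.10 (0.959 to 1.27). Jund, the least inducible of the family, was near 1 throughout. It was slightly higher in KO in B-1 cells, at 1.11 (1.08 to 1.13), and in B-2 cells, at 1.09 (1.06 to 1.13). It was slightly lower in T cells, at 0.931 (0.90 to 0.964), and at 0.975 (0.901 to 1.06) and 1.02 (0.91 to 1.14) in NK and myeloid cells.

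Fos, the partner of Jun in classical AP-1, did not follow Nr4a1. In B-1 cells it was at 308 CPM (291 to 325) for WT and 365 CPM (351 to 379.9) for KO, which gave a ratio of 1.19 (1.11 to 1.27). B-2 cells had Fos at 359 CPM (333 to 387) for WT and 434 CPM (411 to 458) for KO, which gave a ratio of 1.21 (1.1 to 1.33). The B-2 difference depended on the draw, with 1.01 under another random draw. In myeloid cells, where Fos was highest, the levels were 1306 CPM (1179 to 1444) for WT and 1651 CPM (1576 to 1729) for KO, which gave a ratio of 1.26 (1.13 to 1.41). T cells were at 404 CPM (382 to 426) for WT and 374 CPM (354 to 395) for KO, which gave a ratio of 0.926 (0.857 to 1.002), and NK cells at 447 CPM (392 to 508) for WT and 349 CPM (292 to 414) for KO, which gave a ratio of 0.781 (0.626 to 0.97). Fos was thus higher in KO in the 3 classes where Jun ratios were between 0.83 and 1.04, and none of these Fos differences reached 1.5-fold. Fosb, a relative of Fos, was between 23.8 and 97.8 CPM, and its interval held 1 in all 5 classes. The myeloid Fosb ratio of 1.37 turned to 0.803 with 4000 UMIs and 0.789 with another random draw, and the NK ratio of 0.844 to 2.50 under the stricter gate.

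At this depth Egr1, a target of ERK signalling, had a ratio below 1 in each class, but the interval excluded 1 only in B-1 cells. There it was at 155 CPM (143 to 168) for WT and 138 CPM (129.7 to 147) for KO, which gave a ratio of 0.891 (0.805 to 0.986). The B-1 ratio turned to 1.01 with 4000 UMIs and 1.24 with 1000 UMIs. The myeloid class had by far the most Egr1, at 643 CPM (554 to 741) for WT and 595 CPM (550.2 to 643) for KO, which gave a ratio of 0.926 (0.786 to 1.09). NK cells had a ratio of 0.603 (0.279 to 1.22) on 28 and 12 UMIs, and 0.811 under the stricter gate. With all UMIs of the same barcodes, the Egr1 interval held 1 in B-1 cells, at 0.961 (0.916 to 1.01), and lay below 1 in NK cells, at 0.479 (0.268 to 0.814), and in myeloid cells, at 0.893 (0.828 to 0.964). T cells were lowest, at 37.7 and 30.2 CPM. Egr1 was concentrated in few barcodes. In B-2 cells 1 WT barcode held 28 of the 177 Egr1 UMIs. Dusp1, which ends MAP kinase signalling, was higher in KO in B-1 cells, at 171 CPM (159 to 184) for WT and 234 CPM (223 to 245) for KO, which gave a ratio of 1.36 (1.25 to 1.49). The B-2 ratio was 1.15 (1.03 to 1.28), the T ratio 0.934 (0.874 to 0.997), the NK ratio 0.999 (0.848 to 1.18) and the myeloid ratio 1.05 (0.963 to 1.14). The order of Dusp1 levels was myeloid, NK, T, B-2 and B-1 in both libraries, with every neighbour separable by counting error.

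Ratios between members within a class do not depend on how CPM is scaled. The number of Nr4a1 UMIs for each Fos UMI was lower in KO in all 5 classes. In B-1 cells it was 1.75 in WT and 1.11 in KO, a ratio of 0.635 (0.581 to 0.694). The ratio was 0.529 (0.468 to 0.598) in B-2, 0.528 (0.462 to 0.602) in T, 0.679 (0.504 to 0.915) in NK and 0.662 (0.56 to 0.782) in myeloid cells. Nr4a1 for each Dusp1 UMI gave ratios between 0.524 in T and 0.798 in myeloid cells, and Nr4a1 for each Junb UMI between 0.605 in T and 0.826 in myeloid cells, all with intervals below 1. Against Egr1, the other reporter of receptor signalling, the intervals lay below 1, with ratios of 0.846 (0.753 to 0.95) in B-1, 0.679 (0.549 to 0.837) in B-2 and 0.611 (0.456 to 0.82) in T cells, and held 1 in NK and myeloid cells. Jun for each Fos UMI was lower in KO in 3 classes, with ratios of 0.768 (0.69 to 0.855) in B-1, 0.623 (0.554 to 0.70) in T and 0.656 (0.527 to 0.82) in myeloid cells, and its interval held 1 in B-2 and NK cells. These pairs were chosen after the levels had been seen.

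**Figure D3:**
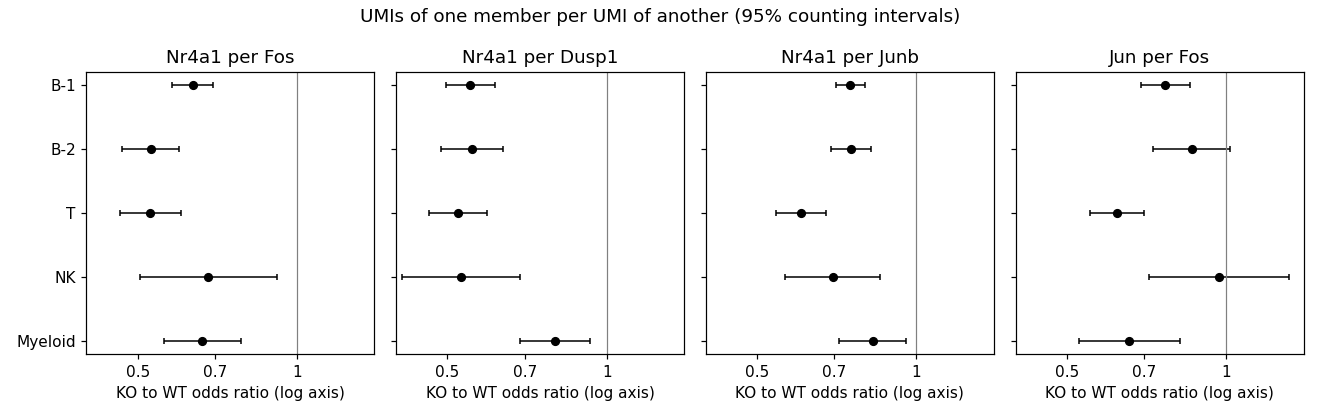
KO to WT ratio (log axis) of UMIs of one member for each UMI of another, in 5 classes, with 95% counting intervals and a line at 1. All 5 intervals lie below 1 for Nr4a1 against Fos, Dusp1 and Junb, while the interval for Jun against Fos reaches 1 in B-2 and NK cells.

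T subsets were gated on Cd4, on Cd8a and Cd8b1, on gamma-delta receptor genes together with Cd163l1, and on naive-like or memory-like markers. A barcode can thus fall in one of the first and one of the last kind. Nr4a1 was lower in KO in each subset. CD4 T barcodes (408 in WT and 319 in KO) had Nr4a1 at 328 CPM for WT and 132 for KO (ratio 0.401, 0.31 to 0.514). CD8 T barcodes (275 and 353) had it at 182 CPM for WT and 108 for KO (ratio 0.592, 0.433 to 0.806), and gamma-delta barcodes (97 and 206) at 289 CPM for WT and 153 for KO (ratio 0.53, 0.364 to 0.773). Naive-like barcodes (446 and 388) showed the lowest ratio, with 261 CPM for WT and 87.6 for KO (ratio 0.335, 0.252 to 0.441). In memory-like barcodes (937 and 1107) it was at 342 CPM for WT and 178 for KO (ratio 0.521, 0.458 to 0.592). Jun too was lower in all of these, from 0.439 (0.371 to 0.517) in naive-like to 0.763 (0.622 to 0.938) in gamma-delta barcodes. With subsets weighted alike in both libraries, the T ratios were 0.483 for Nr4a1 and 0.545 for Jun.

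Fos ratios lay on both sides of 1 among the T subsets. In CD4 barcodes, Fos was at 317 CPM for WT and 398 for KO (ratio 1.25, 1.05 to 1.5). In CD8 barcodes it was at 335 CPM for WT and 231 for KO (ratio 0.69, 0.555 to 0.857), and in gamma-delta barcodes at 1041 CPM for WT and 396 for KO (ratio 0.38, 0.307 to 0.469). The CD4 and the other two intervals lie on opposite sides of 1, a difference that was not tested. T barcodes in none of the CD4, CD8 and gamma-delta groups (785 in WT and 862 in KO) had a Fos ratio of 1.06 (0.953 to 1.18). Gamma-delta barcodes also had lower Egr1, with 28 UMIs in WT and 5 in KO and a ratio of 0.0841 (0.0254 to 0.221). Fosb was at 0.251 (0.0922 to 0.631) and Dusp1 at 0.669 (0.57 to 0.787), with Junb at 1.01 (0.923 to 1.1). Single barcodes weighed on Fosb in this small subset, where 1 WT barcode held 7 of 15 UMIs. Without the barcode with most Fosb UMIs in each library, the ratio was 0.41. The barcode with most Fos UMIs held 28 of 202 in WT and 20 of 163 in KO, and without it the ratio was 0.385. Of all genes at 20 CPM in gamma-delta barcodes, 16.8% were lower past 1.5-fold and 14.4% higher. Barcodes with a UMI of Cd163l1, which marks IL-17-producing gamma-delta cells, were 46 of 97 in WT and 143 of 206 in KO. In those with Cd163l1, Fos was at 1087 CPM for WT and 311 for KO (ratio 0.286, 0.213 to 0.385). In those without, it was at 1000 CPM for WT and 587 for KO (ratio 0.587, 0.429 to 0.80). Jun had ratios of 0.553 (0.437 to 0.703) with Cd163l1 and 1.09 (0.712 to 1.67) without, and Nr4a1 of 0.456 (0.262 to 0.803) and 0.734 (0.428 to 1.25). Both intervals without Cd163l1 held 1. This split was made after the values had been seen. Cd163l1 was itself among the markers that gated gamma-delta barcodes, so the shares with and without it are partly set by the gate.

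**Figure D4:**
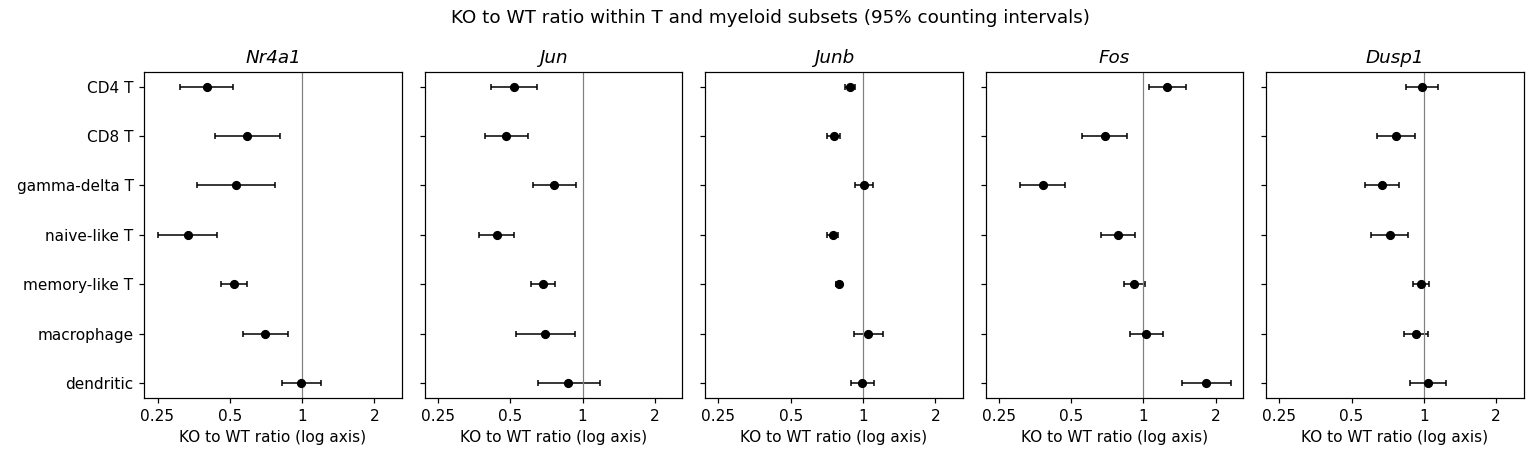
KO to WT ratio (log axis) of 5 members within T and myeloid subsets, with 95% counting intervals and a line at 1. Nr4a1 and Jun lie left of 1 in all T subsets, whereas Fos lies right of 1 in CD4 and dendritic barcodes and left of 1 in CD8, gamma-delta and naive-like barcodes.

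Myeloid barcodes were divided into macrophage and dendritic barcodes by their markers, and 37 WT and 89 KO barcodes fell in neither group. In macrophage barcodes (49 in WT and 259 in KO), Nr4a1 was at 1122 CPM for WT and 788 for KO (ratio 0.702, 0.567 to 0.874). Dendritic barcodes (61 and 199) had it at 1287 CPM for WT and 1276 for KO (ratio 0.992, 0.828 to 1.19). Nr4a2 was lower in both, with ratios of 0.378 (0.219 to 0.673) and 0.429 (0.25 to 0.748). In WT, 1 macrophage barcode held 9 of the 21 Nr4a2 UMIs, and without the barcode with most in each library the macrophage ratio was 0.589. Fos was higher in KO in dendritic barcodes, at 713 CPM for WT and 1302 for KO (ratio 1.83, 1.45 to 2.32), and at 1.03 (0.877 to 1.2) in macrophage barcodes. Egr1 was 0.639 (0.44 to 0.949) in macrophage and 1.04 (0.861 to 1.27) in dendritic barcodes. In these small groups 21.1% and 18.8% of genes were lower past 1.5-fold and 19.2% and 18.6% were higher. With subsets weighted alike, the myeloid Nr4a1 ratio was 0.845.

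B-1 barcodes were divided by the heavy chain in the BCR libraries. IGHV11-2 and IGHV12-3 are the V genes of the phosphatidylcholine-binding B-1a repertoire, a self-reactive specificity selected into the B-1 pool. Barcodes with either made up 27.4% of WT and 18.8% of KO B-1 barcodes. Within each library these barcodes had more Egr1 than B-1 barcodes with another heavy chain, at 247 against 102 CPM in WT, a ratio of 2.43 (2.02 to 2.93), and 223 against 102 CPM in KO, a ratio of 2.18 (1.86 to 2.55). Nr4a1 was higher in them too, at 657 against 497 CPM in WT, a ratio of 1.32 (1.2 to 1.45), and 588 against 343 CPM in KO, a ratio of 1.71 (1.56 to 1.88). Dusp1 was lower, with ratios of 0.763 in WT and 0.699 in KO, and so was Junb (0.846 and 0.893). Jun, Jund, Fos and Fosb had intervals that held 1 in both libraries. Of genes at 20 CPM, 3.15% were higher past 1.5-fold in WT and 2.96% in KO, and 6.64% and 6.19% were lower. Between genotypes, Nr4a1 had a ratio of 0.895 (0.808 to 0.991) within the IGHV11-2 and IGHV12-3 barcodes and 0.689 (0.633 to 0.751) within the others. The difference between these 2 ratios was not tested. Egr1 was at 0.902 (0.762 to 1.07) and 1.003 (0.841 to 1.2), and Dusp1 at 1.25 (1.02 to 1.53) and 1.36 (1.21 to 1.54).

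**Figure D5:**
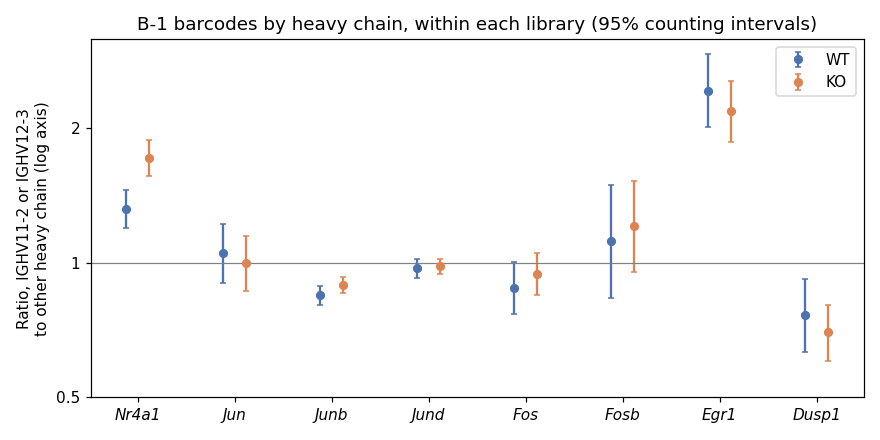
Ratio (log axis) of B-1 barcodes with IGHV11-2 or IGHV12-3 to B-1 barcodes with another heavy chain, for the 8 members at 20 CPM, in WT (blue) and KO (orange), with 95% counting intervals. Egr1 and Nr4a1 lie above 1 and Junb and Dusp1 below 1 in both libraries.

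Members were spread over many barcodes and overlapped only in part. Of the 10 members, a mean of 3.92 had a UMI in a WT T barcode and 3.5 in a KO T barcode. The means were 4.79 and 4.27 in NK, 5.83 and 5.6 in myeloid, 3.65 and 3.68 in B-1 and 3.55 and 3.56 in B-2 barcodes. Barcodes with at least 5 members were 30.5% of WT and 20.3% of KO T barcodes, and 24.5% and 25.1% of B-1 barcodes. Within T barcodes that had an Nr4a1 UMI, 42.7% of WT and 41.9% of KO barcodes also had Fos, against 37.4% and 36.3% of those without. In B-1 barcodes Egr1 was more often found beside Nr4a1. It was present in 19.7% of WT barcodes with Nr4a1 and 8.33% without, and in 22.6% and 8.77% in KO. Barcodes are not replicates, and these shares are descriptions.

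Barcodes were also compared within ranges of depth. Among T barcodes of 2000 to 4000 UMIs (572 in WT and 1303 in KO), the Nr4a1 ratio was 0.403 (0.35 to 0.462) and the Jun ratio 0.617 (0.546 to 0.697). Among those of 4000 to 8000 (879 and 409), they were 0.531 (0.433 to 0.646) and 0.56 (0.479 to 0.652). Above 8000 UMIs only 28 KO T barcodes were left, and the Nr4a1 ratio there was 1.38 (0.762 to 2.4), an interval that holds 1. In B-1 barcodes the Nr4a1 ratio was 0.824 (0.662 to 1.04), 0.704 (0.641 to 0.774) and 0.742 (0.678 to 0.81) in the 3 ranges, and that of Dusp1 was 1.01 (0.733 to 1.42), 1.33 (1.14 to 1.56) and 1.39 (1.22 to 1.59). In T barcodes Jund was at 0.782 (0.747 to 0.818) from 2000 to 4000 UMIs and 0.981 (0.922 to 1.04) from 4000 to 8000, and Dusp1 at 0.872 (0.795 to 0.957) and 1.03 (0.919 to 1.15), so that both intervals held 1 in the middle range. The lowest B-1 range held 88 WT barcodes, and Egr1 there had a ratio of 2.02 (1.14 to 3.96).

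Further genes of the same response were mostly within 1.5-fold. Of 47 further primary response genes, 38 were measured in T cells, where 1.35% of all genes were lower past 1.5-fold and 1.85% higher. Of these 38, 4 were lower and 1 higher, with a median log2 ratio of -0.14. The lowest named were Dusp10, a phosphatase of JNK and p38, at 0.596 (0.535 to 0.664), Maff, a small Maf factor, at 0.614 (0.485 to 0.775), and Ppp1r15a, which restores translation after stress, at 0.629 (0.584 to 0.677). The other two past the mark were Tob1, an antiproliferative gene, at 0.643 (0.549 to 0.753), and Ier5l, higher at 1.57 (1.1 to 2.26), both named after their values were seen. In B-1 cells, where 0.718% of all genes were lower and 1.19% higher, none of 36 was lower and 2 were higher. These were Rgs1, a brake on chemokine receptor signalling, at 1.92 (1.45 to 2.57) and the stress gene Gadd45b at 1.58 (1.18 to 2.14). In B-2 cells 1 of 36 was lower, Dusp4 at 0.646 (0.446 to 0.938), and 1 higher, Dusp10 at 1.81 (1.28 to 2.6). Over all genes in B-2 cells, 2.1% were lower and 1.39% higher. Dusp10 thus had ratios on opposite sides of 1 in T and B-2 cells. In NK cells 5 of 37 were lower and 4 higher, near the shares over all genes there (9.98% and 10.7%), with Ier5l at 2.54 (1.61 to 4.08), Myc, the growth regulator, at 2.21 (1.56 to 3.15) and the NF-kB subunit gene Rel at 0.515 (0.265 to 0.95). In myeloid cells 7 of 43 were lower and none higher, where 10.4% and 10.7% of all genes were, with Egr3 lowest at 0.269 (0.11 to 0.654) on 12 UMIs in each library.

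Of 13 AP-1 partner genes and 26 genes upstream, which encode the kinases, calcineurin subunits and transcription factors that act on the members, none was past 1.5-fold in B-1, B-2 or T cells. The genes measured there were 6, 7 and 9 partners and 22, 21 and 23 upstream genes. Of all genes in B-1, B-2 and T cells, 0.718%, 2.1% and 1.35% were lower and 1.19%, 1.39% and 1.85% higher. At such shares, lists of this size can hold no gene past the mark without differing from all genes. In NK cells 3 of 10 partners were lower and 1 higher, and 3 of 24 upstream genes lower and 2 higher, against the same 9.98% and 10.7% of all genes. In myeloid cells 2 of 12 partners were higher, Maf at 2.19 (0.996 to 5.69) and Atf2 at 2.08 (0.736 to 8.12), and 3 of 22 upstream genes were lower and 1 higher, against the same 10.4% and 10.7% of all genes. Heat shock genes, which are induced by protein damage, were also mostly below 1. All 8 measured were below 1 in T cells, with a median log2 of -0.31. Past 1.5-fold 2 were lower, Dnajb1 at 0.61 (0.526 to 0.706) and Hsph1 at 0.649 (0.518 to 0.811), where 1.35% of all genes were. All 8 were also below 1 in B-1 cells, with a median of -0.32, where Fos and Dusp1 were higher in KO. In NK cells 7 of 8 were below 1 and in B-2 and myeloid cells 6 of 8, with medians of -0.32, -0.099 and -0.14. Over all genes the median log2 was 0.0013 in T, 0.013 in B-1, 0.017 in NK, -0.027 in B-2 and 0.022 in myeloid cells. The share of all genes below 1 is not given here. The part of heat shock genes in the ratios of the members was not tested.

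Among 4131 genes at 50 CPM in at least 1 class, those whose log2 level was most like the mean level of the members over the 10 class and library values were Lamtor4 (Pearson r of 0.974), Elmo2 (0.963), Fcgr3 (0.952), Smdt1 and Csnk1e (both 0.95). The 10 values come from 2 libraries and share their depth. The pattern they follow is the high myeloid level, as in Fcgr3, an Fc receptor gene that also served as a myeloid gating marker. Dusp1 and Jun lay nearest the mean of the members, with r of 0.848 and 0.823, while Jund, lowest in myeloid cells, had r of -0.716.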

How the data were processed

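The members and gene lists were chosen with earlier results of these data known. Raw UMI counts per gene and barcode were deposited by the authors. Per the file headers, Cell Ranger 6.1.2 made the matrices. The submitters' processing notes differ, naming mm39 as the build and Cell Ranger 6.0.1 with Seurat 4.3.0 as tools, so the version behind the counts is uncertain. The BCR files, deposited as contig tables, were used for heavy-chain V genes only.

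Barcodes of at least 2000 UMIs and under 10% mitochondrial UMIs were thinned to 2000 UMIs (python 3.11.15, numpy 2.4.6, scipy 1.17.1, pandas 2.3.3). A class needed at least 3 UMIs of B, 2 of T, 3 of NK or 4 of myeloid markers, at most 2 of each other lineage (for NK, at most 1 of T), and for B-1 or B-2 at least 2 of its markers. T barcodes also needed more T than NK UMIs, B-1 barcodes no B-2 marker UMI, and B-2 barcodes more B-2 than B-1 UMIs. Thresholds, and the dropping of 11 of the listed markers, were set after seeing the data. Near the B-1 mark, 964 WT and 1766 KO barcodes had just 2 UMIs and 1358 and 2492 had 1. Ungated barcodes were 5.72% of WT and 10.1% of KO. Doublets were treated through the gates. Scrublet (scanpy 1.11.5) marked 0 barcodes automatically in both libraries, so an alternative removed its highest scores, 0.8% for every 1000 barcodes.

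Genes with a mean of 20 CPM entered the background. Ratios past 1.5-fold were counted without a test. The rule for named genes took all members, up to 3 genes past 1.5-fold of each other list and class with the largest log2 ratio, and the 5 genes most like the members. Ratios, intervals and thinning were checked on simulated counts. The comparison by heavy chain within a library, the pairs of members, the depth ranges, the Cd163l1 split and the TGACG search were added after seeing the data.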

Additional observations from a re-analysis of the deposited data

Results flagged for a closer look

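At 2000 UMIs, a few members had counting intervals wholly above 1 in a class or T subset and wholly below 1 in another. These differences were not tested and have no replicate. Among them was Nr4a3, at 3.13 (1.05 to 12.6) in B-2 cells, with intervals below 1 in T, NK and myeloid cells. It was under 20 CPM in B-2 cells, where its ratio turned to 0.859 with 4000 UMIs. Members at 20 CPM or more follow. Fos had KO to WT ratios of 1.19 in B-1, 1.21 in B-2 and 1.26 in myeloid cells against 0.781 in NK cells. The NK interval of Fos held 1 with all UMIs, at 0.847 (0.711 to 1.01), and among barcodes of 2000 to 4000 UMIs, at 0.787 (0.617 to 1.001), and its B-2 ratio was 1.01 with another random draw. Within T cells it was at 1.25 in CD4 barcodes, 0.69 in CD8 barcodes and 0.38 in gamma-delta barcodes. Dusp1 was at 1.36 in B-1 and 1.15 in B-2 cells against 0.934 in T cells. Jund was at 1.11 in B-1 and 1.09 in B-2 cells against 0.931 in T cells. Among T barcodes of 4000 to 8000 UMIs the intervals of both held 1, at 1.03 (0.919 to 1.15) for Dusp1 and 0.981 (0.922 to 1.04) for Jund. Jund intervals also held 1 in B-1 barcodes of 4000 to 8000 UMIs, at 1.004, and B-2 barcodes of 2000 to 4000, at 1.02. They lay above 1 in the other ranges of both B classes. Fos in B-1 barcodes held 1 up to 8000 UMIs and lay above 1 beyond, at 1.26 (1.14 to 1.39). Dusp1 in B-2 barcodes lay above 1 from 2000 to 4000 UMIs, at 1.17 (1.02 to 1.35), and held 1 beyond.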

How the results depend on the processing

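Of 192 counts and medians under other settings, 176 stayed within 1.5 times or the counting error of the reported value and 16 moved. Median log2 ratios of members near 0 changed sign, by less than the median counting error of single members: the B-1 median of 0.058 was -0.023 with all UMIs, -0.043 with another random draw and -0.047 with 1 barcode per clonotype, and the B-2 median of 0.034 was -0.076 with 4000 UMIs and -0.024 under the stricter gate. Of 640 single ratios, 594 stayed and 46 moved. Both totals include the settings with no CPM filter and with a minimum of 100 CPM. These change only which genes are counted, so no single ratio or median of members could move under them. Of those past 1.5-fold, 1 went to the other side of 1, Nr4a3 in B-2 cells (under 20 CPM), from 3.13 to 0.859 with 4000 UMIs. Members lower in B-2 cells, 1 as reported, were 0 with 1000 UMIs, 4000 UMIs, all UMIs or another random draw, and 2 with no CPM filter, which also gave 1 higher in B-2 and 1 lower in B-1 cells. Members lower in T cells, 4 as reported, were 2 with another random draw and 2 at a minimum of 100 CPM, where fewer genes are measured. In NK cells the 3 lower became 6 with 4000 UMIs, on 80 WT and 17 KO barcodes, and 1 at 100 CPM. Under the stricter gate 1 NK member was higher. In myeloid cells the 2 lower became 1 with 4000 UMIs, with all UMIs and at 100 CPM, and 1 member was higher without the highest Scrublet scores. The shares of all genes past 1.5-fold under these settings are not given here, so these counts of members have no background beside them. The causes of the changes by draw, depth, gate and Scrublet score were not tested. Nr4a1 stayed below 1 under every setting run in all 5 classes, between 0.455 and 0.508 in T cells. With 1 library per genotype, no setting measures the spread between mice, and NK and myeloid values are limited by their few barcodes. No paired analysis was possible because each genotype has a single expression library.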
